A study of Mus musculus with 32 samples.

Results

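The comparison of Jak2V617F with control hematopoietic stem cells (HSC) in the Mx1-Cre cohort rests on 4 RNA-seq libraries, 2 of Jak2V617F and 2 of control, out of 32 samples in the series. They were taken by their titles, leaving out the libraries that carry a Jarid2 deletion as well. All 4 came from C57BL/6 mice with the Mx1-Cre driver, aged 10 weeks and 2 months past pIpC, the interferon-inducing RNA that switches this driver on. The control mice are labelled wild type and carry the driver and received pIpC too. The second genotype is given only as Mx1-Jak2V617F, so the construct that carries the mutation is not given in the sources used here. Each library was made from marrow pooled over male and female mice, so a value is that of a pool. Jarid2 was intact by label in every library compared. The other 8 Mx1 libraries (multipotent progenitors, MPP, of both genotypes, and Jak2V617F with Jarid2 deleted) entered the fit to estimate the spread. Nothing in the labels says that the 2 libraries of a group came from separately treated cohorts, and a p-value here reflects variation among libraries, which may be technical.

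JAK2 is the kinase that sits on the receptors for erythropoietin and several myeloid growth factors. When a ligand binds, it phosphorylates STAT5 and other STAT factors, which switch on feedback inhibitors such as CISH and the SOCS proteins and survival genes such as Bcl2l1. The V617F change lies in the pseudokinase domain, which normally holds the kinase back, and lets it signal with little or no ligand. In people and mice the mutation is known for myeloproliferative neoplasms with too many red cells, platelets or granulocytes. The question put to these libraries is which genes differ between stem cells with and without the mutant kinase.

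Summed counts per library were 15302401 and 14398789 in control and 16168351 and 11698573 in Jak2V617F, replicates 1 and 2 in that order. Stem cell markers were low in all 4. The sort was for cells with Kit, Sca1 (Ly6a) and CD150 (Slamf1), without CD48 and without lineage markers. Slamf1 stood at 0.196 and 5.21 CPM (counts scaled to a common library total) in control and 12.7 and 5.04 in Jak2V617F, against 57.4 to 66.1 in the 3 control HSC libraries of the Vav-Cre cohort of the same series, whose labels give C57BL/6 mice aged 8 weeks and mention no pIpC. Procr, the stem cell receptor for protein C, was at 0.0653 and 8.89 CPM in control and 1.11 and 4.02 in Jak2V617F, against 90.8 to 119. Hlf, a transcription factor of stem cells, was at 14.3 and 33.5 against 14.9 and 25.0 CPM, with 592 to 747 in the Vav-Cre controls. Genes that the sort should deplete were plentiful. Cd48 was at 122 and 133 CPM in control and 123 and 93.7 in Jak2V617F, where the Vav-Cre controls had 6.46 to 14.4. Itgam, the CD11b of granulocytes and monocytes, was at 315 and 318 in control and 298 and 138 in Jak2V617F, against 7.56 to 17.9. A list of 29 stem cell genes took 0.102% and 0.0809% of counts in control and 0.0751% and 0.114% in Jak2V617F, against 0.619% to 0.693% in the Vav-Cre controls. A list of 20 granule and monocyte genes took 7.78% and 8.34% in control and 6.08% and 3.53% in Jak2V617F, against 0.135% to 0.397%. These levels set libraries of separately processed cohorts side by side, and no test was made across them. The gene models of the Vav-Cre cohort are reported to differ, and the part of that in these gaps was not tested. The libraries are therefore called by their label, and what is described below is RNA of the libraries labelled HSC.

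Heart muscle RNA was present in each library and unequal between them. Ttn, the giant spring protein of the sarcomere, stood at 3486 and 4257 CPM in control and at 2888 and 21421 in Jak2V617F. Myh6, the main myosin of the adult mouse heart, was at 1896 and 2266 CPM in control and at 1557 and 11582 in Jak2V617F. A list of 31 heart genes took 1.08% and 1.34% of counts in control, 0.89% in Jak2V617F replicate 1 and 6.67% in Jak2V617F replicate 2, and Myl7 alone of the list had no count in any of the 4. Jak2V617F replicate 1 was thus below both controls and replicate 2 far above them, and the groups overlap. In the Vav-Cre control HSC libraries the same list took 0.00307% to 0.00375% of counts. Stromal and vessel genes, with a median log2 fold change of 1.48 (1 of 16 higher and 0 lower without overlap), took 0.0806% and 0.107% in control against 0.0677% and 0.417%, and mitochondrial transcripts 1.48% and 1.88% against 1.49% and 4.96%. Transcripts that differ by sex were unequal too. Ddx3y, on the Y chromosome, was at 11.6 and 14.6 CPM in control and 9.65 and 78.5 in Jak2V617F. Xist, a female transcript, was at 324 and 317 against 306 and 202. The sex balance of the pools was not tested. The widest Wilson 95% interval of a list's share in these libraries was 0.014 percentage points to either side, which covers counting error only.

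**Figure D1:**
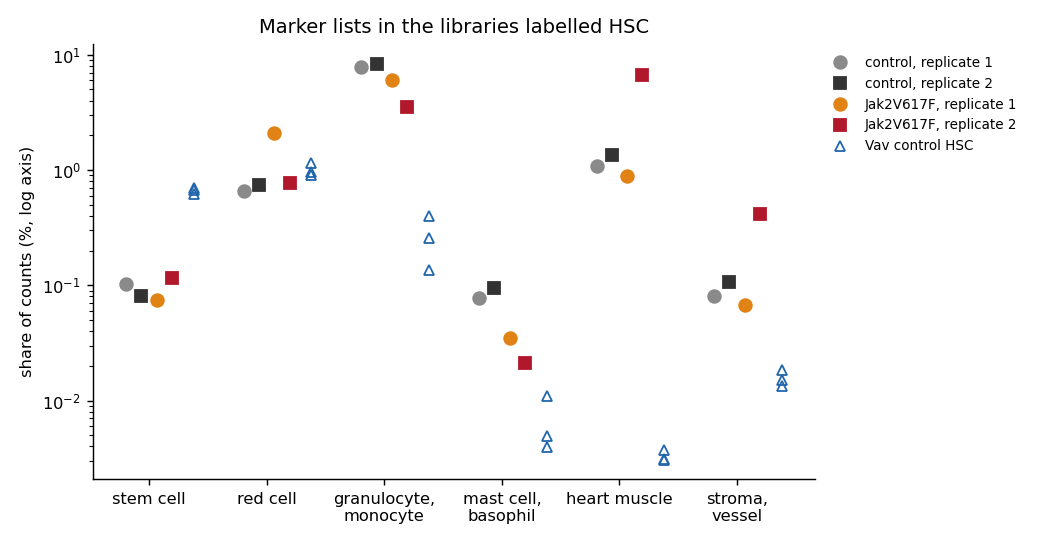
Share of each library's counts (percent, log axis) in 6 marker lists, for the 4 libraries compared (circles, replicate 1; squares, replicate 2; control grey and black, Jak2V617F orange and red) and the 3 Vav-Cre control HSC libraries (open triangles). Stem cell genes take 0.0751% to 0.114% in the 4 libraries, and heart genes 6.67% in Jak2V617F replicate 2 alone against 0.89% to 1.34% in the others.

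Jak2 itself stood at 18.6 and 34.9 CPM in control and 34.0 and 43.6 in Jak2V617F, so the groups overlap in CPM, though not after TMM scaling, and counts per gene cannot show the base change that defines the mutant. Jarid2, a Polycomb partner protein that the study deletes in other groups, was at 68.0 and 45.6 CPM in control and 51.5 and 63.5 in Jak2V617F. These values overlap as well.

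Across 19616 genes tested with edgeR's quasi-likelihood test, none was higher (0%) and none lower (0%) in Jak2V617F at a Benjamini-Hochberg adjusted p of 0.05. The lowest adjusted p was 1, and 299 genes had an unadjusted p under 0.05. In the same libraries DESeq2's Wald test called 5 genes (0.0255% of 19616) and voom with sample weights called 0. These tests gave 641 and 441 genes under an unadjusted p of 0.05. With a term for libraries above 4% heart counts, 1581 genes had an unadjusted p under 0.05, and none passed after adjustment. A share of 0.05 would be reached with no true difference. The counts of 299, 641 and 441 are each below that share, and 1581 is above it. The number of genes with a small unadjusted p thus differed between fits, also among those without a heart term, and the cause was not tested. A fit of the 4 libraries alone called 6 of 15994 genes (0.0375%) and had 713 under an unadjusted p of 0.05. One without a filter on low counts called 11 of 31195 (0.0353%). The spread between libraries of a group was wide, with a common biological coefficient of variation of 0.786. Both Jak2V617F libraries lay above both controls for 2697 genes (13.7%) and below both for 2605 (13.3%). After TMM scaling, which the fit uses and which corrects for a few genes taking up many counts, the numbers were 2596 (13.2%) and 2606 (13.3%). These shares are the background for every count of non-overlapping genes that follows. Counts are by CPM, with those after TMM scaling beside them where the difference bears on a list, and the median log2 fold change over all genes tested was 0.09. No gene named below passed the test, and its adjusted p by edgeR's quasi-likelihood test was 1 in each case.

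Both Jak2V617F libraries departed from the controls mostly in different genes. Of 12258 genes with an average log2 CPM of at least 2, 102 were more than 2-fold above both controls in both Jak2V617F libraries, 240 in replicate 1 alone and 2108 in replicate 2 alone. In the other direction, 49 genes were more than 2-fold below both controls in both libraries, 290 in replicate 1 alone and 837 in replicate 2 alone. Many of these genes also differ between the control MPP libraries, which hold 0.659% and 10.2% heart counts. Of the 2108 high in replicate 2 alone, 93.1% were also more than 2-fold higher in control MPP replicate 2 than in control MPP replicate 1, against 28.2% of all 12258 genes. Of the 837 low in replicate 2 alone, 85.9% were more than 2-fold lower in control MPP replicate 2, against 32.3% of all. The genes shared by both libraries showed the pattern too: 65.7% of the 102 were higher in control MPP replicate 2, and 55.1% of the 49 were lower. The part of heart RNA in these differences was not tested, and the median log2 fold change of the 30 heart genes tested was 1.5 with both Jak2V617F libraries and -0.45 without replicate 2.

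**Figure D2:**
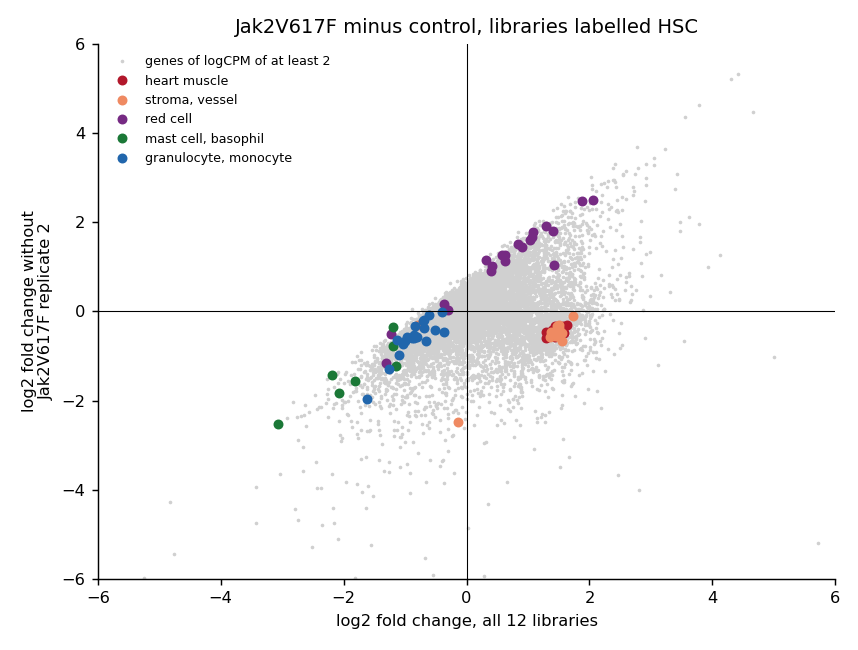
Each grey point is a gene of average log2 CPM of at least 2 (12242 of them drawn, 16 beyond the axes), with its log2 fold change of Jak2V617F over control from all 12 libraries on the x axis and without Jak2V617F replicate 2 on the y axis, and coloured points mark 5 gene lists. Heart genes lie near 1.5 on x and below 0 on y, while mast cell and basophil genes are below 0 on both and most red cell genes above 0 on both.

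The genes of red cell formation had a positive median, 0.74, against 0.09 for all genes. Of 20 members, 7 were higher in both Jak2V617F libraries without overlap, 2 were lower, and 16 had a fitted fold change above 0. After TMM scaling 4 were higher (Tfrc, Rhag, Cpox and Aqp1) and 2 lower. Tfrc, the transferrin receptor that brings iron into dividing erythroid cells, stood at 187 and 192 CPM in control and 1075 and 572 in Jak2V617F. Its log2 fold change was 2.07 ± 0.70 (SE, n = 2 libraries a group), and both Jak2V617F libraries were well above both controls. Rhag, a channel protein of the red cell membrane, was at 81.4 and 130 CPM in control and at 585 and 203 in Jak2V617F (log2 fold change 1.88, SE 0.90). Cpox, which makes a late heme precursor, was at 38.6 and 55.5 CPM against 162 and 94.2 (1.41, SE 0.60). In these 3 genes replicate 1, with 0.89% heart counts, was the higher of the Jak2V617F libraries. The part of heart RNA in these values was not tested. Without replicate 2 the log2 fold changes were 2.49 for Tfrc, 2.48 for Rhag and 1.79 for Cpox. Without replicate 1 they were 1.42, 0.79 and 0.85.

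Other members separated the groups in CPM but not after TMM scaling. Klf1, the erythroid transcription factor, was at 10.7 and 9.45 CPM in control and 38.7 and 12.1 in Jak2V617F. Ermap, an erythroblast membrane protein, was at 332 and 348 against 1093 and 358 CPM, and Car2, a carbonic anhydrase, at 3863 and 4061 against 12186 and 4436. In those 3 genes Jak2V617F replicate 1 was high, and replicate 2 stood close to the controls, within or below them after TMM scaling. Gata1, the master factor of the lineage, was at 194 and 173 CPM in control and 445 and 116 in Jak2V617F, and Epor, the erythropoietin receptor, at 15.8 and 19.2 against 42.4 and 12.6. For both, replicate 1 was above and replicate 2 below the controls. The members lower in both Jak2V617F libraries were 2, near the background share. Alas2, which starts heme synthesis in erythroid cells, was at 27.6 and 38.9 CPM in control and 23.4 and 5.13 in Jak2V617F, and the globin gene Hba-a2 at 18.6 and 37.9 against 12.4 and 11.1. Hba-a1 and Hba-a2 are near-identical copies, so the split of reads between them is uncertain. Summed over the list, red cell genes took 0.661% and 0.736% of counts in control and 2.10% and 0.763% in Jak2V617F. Car2 alone gave most of these counts in each library. The list's median was 1.26 without Jak2V617F replicate 2 and -0.45 without replicate 1, so its sign rests on replicate 1.

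Because heart RNA takes up counts in Jak2V617F replicate 2, lists of marrow genes were also set against each other within a library. For each 100 counts in granule and monocyte genes there were 8.50 and 8.82 counts in red cell genes in control, and 34.6 and 21.6 in Jak2V617F. Both Jak2V617F libraries were above both controls on this ratio, which does not involve the total but leans on Car2. In replicate 2 the red cell share was 0.763%, against 0.661% and 0.736% in control. The granule and monocyte share in replicate 2 was 3.53%, against 7.78% and 8.34% in control. In the MPP libraries the same ratio was 8.4 and 15.6 in control and 29.3 and 23.0 in Jak2V617F. With 2 libraries against 2 the smallest two-sided p of an exact permutation test is 0.333, so no test of the ratio can pass. In bulk RNA, fewer cells of a type and less RNA per cell cannot be told apart.

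The mast cell and basophil genes lay furthest below 0, with a median log2 fold change of -1.76 over 9 genes. Of the 9, 6 were lower in both Jak2V617F libraries without overlap and 0 were higher. Prss34, a basophil protease, stood at 167 and 297 CPM in control and 39.4 and 16.6 in Jak2V617F (log2 fold change -3.07, SE 1.49). Ms4a2, the beta chain of the IgE receptor, was at 118 and 61.9 CPM against 26.2 and 19.5 (-2.08, SE 0.85). Both genes were below both controls in each Jak2V617F library. Mcpt8, a basophil granule protease, was at 35.2 and 98.2 CPM in control and 21.7 and 16.5 in Jak2V617F. Hdc, the enzyme that makes histamine, was at 337 and 318 against 194 and 104. Cpa3, a mast cell protease, was at 62.3 and 130 against 40.2 and 50.1, and Gzmb, a granzyme, at 45.8 and 16.3 against 12.2 and 1.97. The median was -1.42 without Jak2V617F replicate 2 and -2.13 without replicate 1, below 0 either way. The list took 0.0775% and 0.0942% of counts in control and 0.0346% and 0.0212% in Jak2V617F, and 0.124% and 0.024% in the control MPP libraries with 0.659% and 10.2% heart counts. Per 100 counts in granule and monocyte genes, mast cell and basophil genes took 0.996 and 1.13 counts in control and 0.569 and 0.600 in Jak2V617F. In the MPP libraries that ratio was 1.51 and 1.22 in control and 2.10 and 1.31 in Jak2V617F, and the groups overlapped. Of this list, Prss34 passed when the 4 libraries were fitted by themselves (edgeR adjusted p = 0.00214), while its adjusted p was 1 by DESeq2.

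**Figure D3:**
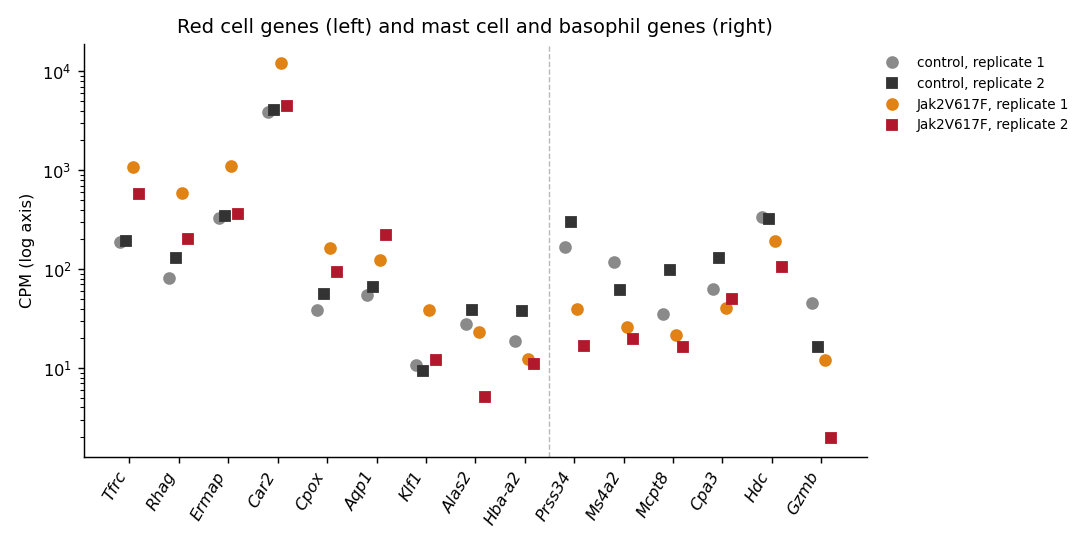
CPM (log axis) of 9 red cell genes and 6 mast cell and basophil genes in each of the 4 libraries (circles, replicate 1; squares, replicate 2; control grey and black, Jak2V617F orange and red). Tfrc stands at 1075 and 572 in Jak2V617F against 187 and 192 in control, and Prss34 at 39.4 and 16.6 against 167 and 297. After TMM scaling Klf1, Ermap and Car2 overlap between the groups.

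Promoters of 4 genes from these lists are shown because GATA factors, which bind both erythroid and mast cell genes, recognise short motifs that can be found by letters. The 250 bases before the start of each gene were read from a RefSeq table of build GRCm38.p6, in the direction of the gene, with each AGATAA or TGATAA on either strand in capitals. Rhag and Cpox, higher in both Jak2V617F libraries, and Ms4a2 and Prss34, lower in both, hold at least 1 match each. The 4 genes were set by name and not by a rule, so a match in each says nothing about their lists. Rhag lies on the plus strand (chr17:40810899-40811148), Cpox on the plus strand (chr16:58669958-58670207), Ms4a2 on the minus strand (chr19:11623720-11623969) and Prss34 on the plus strand (chr17:25298144-25298393).
Rhag: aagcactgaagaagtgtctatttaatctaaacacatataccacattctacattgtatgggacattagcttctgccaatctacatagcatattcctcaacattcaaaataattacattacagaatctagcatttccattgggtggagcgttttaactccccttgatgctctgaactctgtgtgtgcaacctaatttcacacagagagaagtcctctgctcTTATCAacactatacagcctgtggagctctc
Cpox: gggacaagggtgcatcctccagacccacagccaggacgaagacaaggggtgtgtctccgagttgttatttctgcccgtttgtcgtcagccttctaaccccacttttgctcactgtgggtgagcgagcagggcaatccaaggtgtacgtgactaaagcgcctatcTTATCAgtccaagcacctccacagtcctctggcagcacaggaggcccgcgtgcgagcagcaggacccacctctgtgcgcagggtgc
Ms4a2: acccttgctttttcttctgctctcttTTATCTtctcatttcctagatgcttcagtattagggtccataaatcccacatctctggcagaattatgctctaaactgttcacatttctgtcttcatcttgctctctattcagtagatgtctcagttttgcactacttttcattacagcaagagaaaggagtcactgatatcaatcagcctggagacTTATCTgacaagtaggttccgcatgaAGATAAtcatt
Prss34: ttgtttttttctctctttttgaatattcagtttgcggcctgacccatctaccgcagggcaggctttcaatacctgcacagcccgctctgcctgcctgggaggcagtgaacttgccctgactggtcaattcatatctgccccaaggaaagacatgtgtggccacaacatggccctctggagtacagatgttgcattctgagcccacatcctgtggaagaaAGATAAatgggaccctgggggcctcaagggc
Ms4a2 has 3 matches and the other genes 1 each. Either motif was found in 16.6% of the 32851 promoters in the table, counted per promoter. Counted per gene, with a match in any of its promoters, it was found in 10 of the 16 red cell genes listed. The same count was 4 of the 9 mast cell and basophil genes. A gene with several promoters has more chances of a match, so the share per promoter is not a like background. A match is a description of the letters in this window only, and it occurs in genes that differ in opposite directions.

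Of 20 granule and monocyte genes, 14 were lower in both Jak2V617F libraries without overlap (17 after TMM scaling) and 0 higher, and the median log2 fold change was -0.84. The list's share was also 8.22% and 1.96% in the control MPP libraries, which hold 0.659% and 10.2% heart counts, and the part of heart RNA in the HSC values was not tested. Mpo, the peroxidase of granules, stood at 13651 and 17224 CPM in control and 9756 and 6113 in Jak2V617F (log2 fold change -1.01, SE 0.95). Elane, the neutrophil elastase, was at 6995 and 8313 CPM against 4651 and 3115 (-1.03, SE 0.86). Irf8, which directs progenitors to monocytes and dendritic cells, was at 91.4 and 70.9 against 33.8 and 39.0. Cebpa, the factor that starts granulocyte formation, was at 22.5 and 11.5 against 4.51 and 7.78. In Irf8 and Cebpa replicate 1, with little heart RNA, was the lower of the Jak2V617F libraries, whereas for Mpo and Elane it was replicate 2. Ltf and Lcn2, granule proteins of later cells, overlapped, with Ltf at 11776 and 10517 in control and 10706 and 4389 in Jak2V617F. The median was -0.57 without replicate 2 and -1.30 without replicate 1, and all 20 members were below 0 with both libraries and in each of these 2 fits.

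Platelet genes gave a median of -0.49, with 6 of 20 members lower (5 after TMM scaling) and 2 higher without overlap. Pf4, a platelet chemokine, stood at 78.8 and 55.4 CPM in control and 18.5 and 37.6 in Jak2V617F (log2 fold change -1.39, SE 0.62). Itga2b, the CD41 of megakaryocytes, was at 88.4 and 39.6 against 29.1 and 15.8. Vwf, a clotting factor made by platelets and vessel wall, was at 22.5 and 30.5 against 26.2 and 78.6, highest in the library with the most heart and vessel RNA. The 2 members that were higher, Gp1bb and Gp5, stood below 3 CPM in each of the 4 libraries. The median was -0.06 without Jak2V617F replicate 1, -0.11 without control replicate 1 and 0.78 without control replicate 2.

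Receptors that signal through JAK kinases or beside them had a median of -0.51, with 6 of 18 lower and 2 higher without overlap (5 and 1 after TMM scaling, where Kit and Ifngr2 overlapped). Among the lower members was Csf3r, the receptor for granulocyte colony-stimulating factor, at 231 and 189 CPM in control and 137 and 62.4 in Jak2V617F. Flt3, a receptor of lymphoid and myeloid progenitors, was at 124 and 85.3 against 58.8 and 33.6. Kit, the receptor for stem cell factor, was at 492 and 421 against 390 and 284. Csf2ra and Csf2rb2, chains of the receptors for colony-stimulating factors and interleukin 3, were also lower. The higher members were Il7r, at 0.261 and 8.89 against 21.4 and 13.4, and Ifngr2, at 50.0 and 49.3 against 51.3 and 123. The median was -0.11 without control replicate 1 and -0.29 without Jak2V617F replicate 2.

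Targets of STAT5 did not separate the groups as a list. Their median log2 fold change was -0.02 over 14 genes, with 2 higher and 0 lower without overlap (2 and 1 after TMM scaling). Cish, a feedback inhibitor of cytokine receptors, stood at 16.6 and 5.07 CPM in control and 20.3 and 21.5 in Jak2V617F, a log2 fold change of 0.81 (SE 0.64). Both Jak2V617F libraries were above both controls, but the gap from control replicate 1 to Jak2V617F was smaller than that between the controls. Socs2, a second feedback inhibitor, was at 4.90 and 6.46 against 6.74 and 18.7 (1.05, SE 0.71), with replicate 1 next to the controls. Bcl2l1, which keeps erythroid precursors alive, was at 35.2 and 61.3 against 35.7 and 33.6. Pim1, a survival kinase, was at 169 and 125 against 139 and 118, and Id1, an inhibitor of differentiation factors, at 5.49 and 12.2 against 5.88 and 25.8. These 3 overlapped in CPM, and Bcl2l1 was lower without overlap after TMM scaling. The list's median was -0.27 without Jak2V617F replicate 2, 0.55 without Jak2V617F replicate 1 and 0.54 without control replicate 1. An interval of 2 SE to each side of the value for Cish runs from below 0 to above 2 on the log2 scale, so these libraries do not show that STAT5 targets were alike.

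The kinases, STAT factors and their brakes had a median of -0.03, with 0 higher and 2 lower of 16 (1 and 2 after TMM scaling). Stat5a was at 29.3 and 62.2 CPM in control and 46.1 and 28.5 in Jak2V617F, and Stat5b at 53.2 and 55.2 against 54.2 and 64.6. Sh2b3, the adaptor that restrains JAK2, was at 33.7 and 25.1 against 27.9 and 52.0. The lower members were Stat6, at 268 and 267 against 250 and 143 and overlapping after TMM scaling, and Tyk2, at 59.1 and 51.3 against 47.1 and 34.8.

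**Figure D4:**
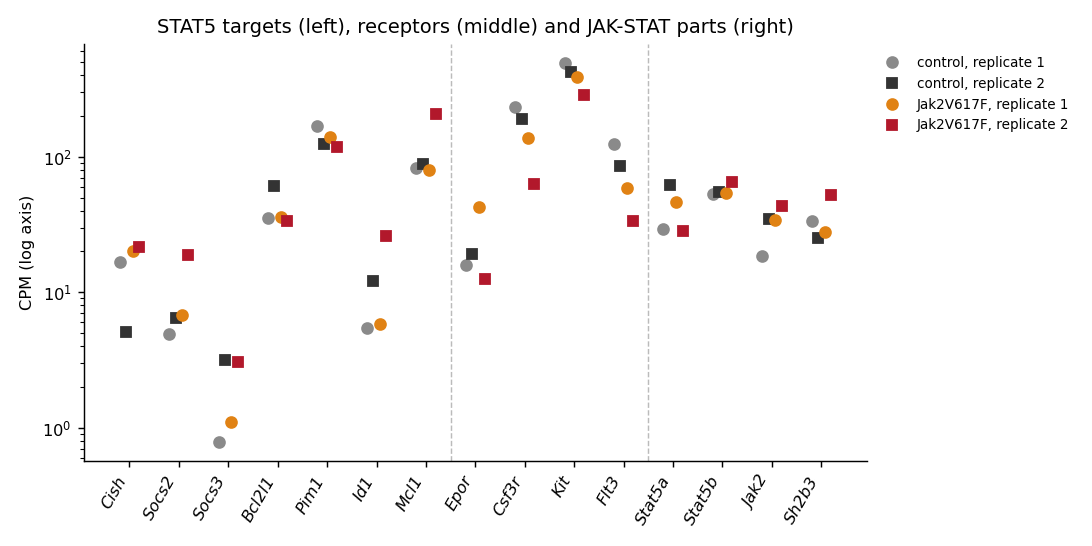
CPM (log axis) of 7 STAT5 targets, 4 receptors and 4 JAK-STAT genes in the 4 libraries (circles, replicate 1; squares, replicate 2; control grey and black, Jak2V617F orange and red). Cish and Socs2 are above both controls in both Jak2V617F libraries and Csf3r, Kit and Flt3 below, while the other genes drawn overlap. After TMM scaling Kit overlaps, and Jak2 (higher) and Bcl2l1 (lower) do not.

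Genes of proliferation were higher in Jak2V617F replicate 1 than in replicate 2, in all 19 replication and all 20 mitosis genes. Of the 19 replication genes 0 were higher and 1 lower without overlap, and of 20 mitosis genes 0 were higher and 2 lower (0 and 0 after TMM scaling). Mki67, a mark of cycling cells, stood at 419 and 364 CPM in control and 429 and 241 in Jak2V617F. Top2a, which untangles DNA in dividing cells, was at 1022 and 1200 against 1271 and 728. In replicate 1, 14 of the 19 replication genes and 16 of the 20 mitosis genes were above both controls, where 28.1% of all genes were. Their medians were 0.25 and 0.27 without replicate 2 and -0.88 for both without replicate 1. Replication genes took 0.535% and 0.559% of counts in control, 0.68% and 0.318% in Jak2V617F, and 0.572% and 0.154% in the control MPP libraries.

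Stem cell genes had a median of -0.01, with 5 of 29 higher and 4 lower without overlap (3 and 4 after TMM scaling). Meis1, a partner of HOX proteins in stem cells, was at 172 and 115 CPM in control and 73.2 and 86.8 in Jak2V617F. Angpt1, a ligand made by stem cells, was at 118 and 84.9 against 54.2 and 61.9, and Gata2, a factor of stem cells and mast cells, at 72.2 and 61.7 against 40.1 and 49.4. Mllt3, which sustains stem cells, was at 34.6 and 29.9 against 86.2 and 60.2 (log2 fold change 1.11, SE 0.57). Esam, also a gene of vessel walls, had the lowest unadjusted p of the list but was at 7.12 and 9.93 against 9.52 and 55.5, high only in the library rich in heart RNA. The median was -0.64 without Jak2V617F replicate 2 and 0.35 without replicate 1. Slamf1 was at its highest in Jak2V617F replicate 1, and Procr at its highest in control replicate 2, so these defining markers did not order the groups. Of the 10 sort markers tested, 0 were higher and 4 lower without overlap, with a median of -0.41, and 2 were lower after TMM scaling.

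Genes of lymphoid priming had a median of -0.38, with 4 of 15 higher and 5 lower without overlap. Il12a, a subunit of cytokines, stood at 63.3 and 65.8 CPM in control and 25.2 and 17.2 in Jak2V617F (log2 fold change -1.67, SE 0.65). Rag1, the recombinase of antigen receptors, was at 0.196 and 3.33 against 16.1 and 13, while its partner Rag2 was at 1.31 and 11.9 against 9.03 and 8.21 and overlapped. The list of B and T cell genes had 1 of 14 higher and 3 lower without overlap (0 and 4 after TMM scaling), with a median of 0.13.

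Interferon responses were of interest because Mx1-Cre is switched on by interferon, though every library shared that treatment. Of 29 genes induced by type I interferon 3 were higher and 2 lower without overlap, and the median was 0.26. After TMM scaling 2 were higher and 5 lower, so the balance depends on the scaling. Oasl2, an antiviral protein, was at 8.43 and 8.33 CPM in control and 14.7 and 12.8 in Jak2V617F, and Oas2, an RNA sensor, at 4.31 and 6.53 against 8.54 and 15.6. Usp18, which ends interferon signalling, was at 45.0 and 21.8 against 10.7 and 21.3. Isg15 was at 0 and 7.15 against 4.64 and 3.85. Of 15 genes of the interferon gamma response and antigen presentation tested, 3 were higher and 0 lower. Igtp, a GTPase of that response, was at 2.22 and 37.0 against 43.5 and 37.6 and overlapped after TMM scaling. For Usp18, Isg15 and Igtp the control libraries differed more from each other than control replicate 2 did from either Jak2V617F library. For Oasl2 the controls were alike.

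Among the remaining lists, p53 targets had a median of 0.73, with 2 of 11 higher and 0 lower without overlap, and the median was 0.08 without Jak2V617F replicate 2. Mdm2, the brake on p53, was at 25.7 and 32.7 CPM in control and 44.4 and 67.3 in Jak2V617F, and Trp53inp1 at 12.4 and 25.1 against 37.8 and 44.4. Ccng1, another target, was at 112 and 170 against 133 and 694. Genes of glycolysis and hypoxia had a median of 0.01, with 1 of 16 higher and 5 lower (1 and 4 after TMM scaling), among the lower Pkm at 1429 and 1427 CPM in control and 1013 and 934 in Jak2V617F. Pkm makes pyruvate in the last step of glycolysis. Polycomb repressive complex 2, to which Jarid2 belongs, had 0 members higher and 1 lower of 11. Ezh2, its methyltransferase, was at 110 and 128 against 167 and 99.2. Immediate early genes, which handling of cells can switch on, had 3 higher and 3 lower of 19 (4 and 4 after TMM scaling), with Fos at 198 and 128 against 83.9 and 90.2. Inflammatory genes had 1 higher and 1 lower of 11 (0 and 1 after TMM scaling), and cyclins and their inhibitors 1 and 1 of 12 (1 and 0). Macrophage and dendritic cell genes had 1 higher and 2 lower of 11.

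**Figure D5:**
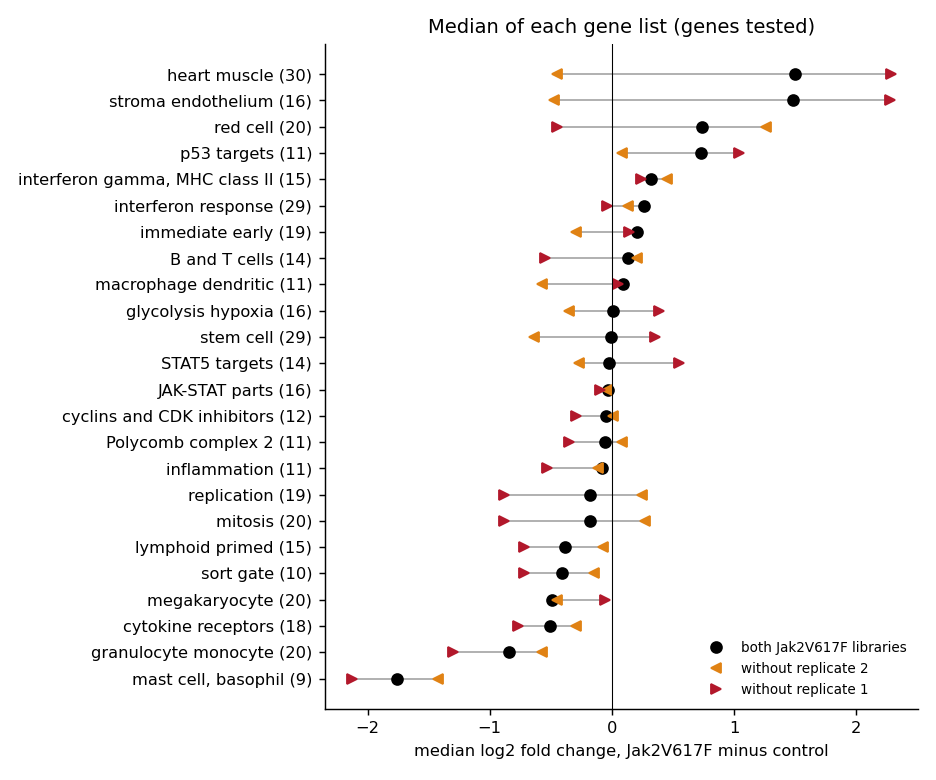
Median log2 fold change of Jak2V617F over control for each of 24 gene lists (number of genes tested in brackets), from both Jak2V617F libraries (black circles), without replicate 2 (orange triangles) and without replicate 1 (red triangles). The mast cell and basophil median is -1.42 or lower in all 3, while heart muscle runs from -0.45 to 2.29 and red cell genes from -0.45 to 1.26.

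Outside the lists, the genes of smallest unadjusted p with no overlap between the groups were taken, 12 in each direction, and none passed the test. Apart from Tfrc, the higher ones included Podxl, a sialomucin of blood vessels and progenitors, at 11.2 and 18.8 CPM in control and 83.7 and 86.1 in Jak2V617F (log2 fold change 2.44, SE 0.84). Podxl was at a like level in both Jak2V617F libraries, and control MPP replicate 2 had 119 CPM. Xrcc5, which encodes the Ku80 protein of DNA end joining, was at 14.4 and 26.2 against 60.6 and 61.9 (1.54, SE 0.51), but control MPP replicate 1 had 80.0. Slc1a4, an amino acid transporter, was at 0.327 and 0.0695 against 4.82 and 6.75, C9orf72 at 2.22 and 9.51 against 38.6 and 24.4, and Tmem140 at 0.980 and 1.25 against 8.04 and 10.0. Snx24, a sorting nexin, was at 0.261 and 0.347 against 0.742 and 11.4, high in replicate 2 alone.

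Several of the higher genes are parts of antigen receptors. Igkv6-32, a kappa light chain segment on chromosome 6, had 3 and 2 counts in control and 1777 and 154 in Jak2V617F, and the joining segment Igkj1 had 0 and 3 against 225 and 124. Ighv6-7, a heavy chain segment, had no count in control and 6 and 845 in Jak2V617F. Tcrg-C1, a constant region of the T cell receptor gamma chain, was at 0.392 and 2.57 CPM in control and 123 and 34.4 in Jak2V617F. These segments belong to multigene families, in which near-identical copies share reads, so their counts are uncertain. Of 460 variable, diversity and joining segments listed, each library had counts in 50 to 103, and the leading 5 made up 44.3% to 88.9% of the sum. That sum was 25.8 and 394 CPM in control and 329 and 220 in Jak2V617F, so the groups overlap, with control replicate 2 highest. Ighm, a heavy chain gene, overlapped as well, at 365 and 1680 CPM against 907 and 496. The leading segment differed between the libraries: Ighv9-3 led in control replicate 2 with 110 CPM, Igkv6-32 in Jak2V617F replicate 1 with 110 CPM and Ighv6-7 in Jak2V617F replicate 2 with 72.2. Antigen receptor genes were among the calls of each alternative fit that made any in this comparison. They went in both directions in the fit with no filter on low counts, where Igkv4-59, Igkj5 and Ighv9-3 were called lower. DESeq2's adjusted p was 2.54e-06 for Igkv6-32 and 0.015 for Tcrg-C1. Sfrp4, a secreted inhibitor of Wnt signals, had 0 and 11 counts in control and 957 and 103 in Jak2V617F, with an edgeR adjusted p of 9.42e-07 in the fit of the 4 libraries alone and 0.0593 by DESeq2.

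The lower genes were led by Chrnb1, the beta subunit of the muscle acetylcholine receptor, at 11.2 and 5.00 CPM in control and 0.124 and 0.342 in Jak2V617F (log2 fold change -5.25, SE 1.12). It passed DESeq2's test (adjusted p = 0.000707) and was at 5.65 and 5.61 CPM in the control MPP libraries. Clcn5, a chloride and proton exchanger of endosomes, was at 24.4 and 16.3 against 2.54 and 4.53 (-2.66, SE 0.76). Atp10a, a lipid flippase, was at 42.6 and 12.2 against 2.41 and 7.52, and Trim65, a ubiquitin ligase, at 91.2 and 50.0 against 17.0 and 20.5. Zfp57, a zinc finger protein that guards imprints, had 35 and 57 counts in control and 1 and 2 in Jak2V617F. Ttyh2 was at 44.1 and 36.4 CPM against 10.0 and 11.8, and B3gnt5, a glycolipid enzyme, at 67.1 and 38.1 against 7.98 and 20.2. Rab6b, Zfp747, Myl10 and Dpm1 were also lower, with log2 fold changes from -4.05 for Myl10 to -1.84 for Dpm1. These genes were chosen for being low in both Jak2V617F libraries, so that both are low is not a further result. The part of heart RNA in their values was not tested.

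The difference between the Jak2V617F effect in HSC and that in MPP libraries was tested in the same fit. No gene of 19616 passed (0%), with 299 genes under an unadjusted p of 0.05, and DESeq2 called 1. The log2 fold change of Tfrc was 2.07 in the HSC libraries and 1.13 (SE 0.68) in MPP, an interaction of 0.94 (SE 0.95). For Ms4a2 the HSC value was -2.08 and the MPP value -1.45 (SE 0.83), and for Prss34 they were -3.07 and -0.82 (SE 1.38). For Il12a they were -1.67 and -1.65. Chrnb1 was at 5.28 and 11.1 CPM in the Jak2V617F MPP libraries, and its interaction was -5.66 (SE 1.4). The Jak2V617F MPP libraries hold 8.77% and 7.98% heart counts and the control MPP libraries 0.659% and 10.2%, and that part in the interaction was not tested.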

How the data were processed

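RNA-seq of sorted mouse cells was read from 1 deposited table per library. Per the file headers, the authors gave each gene a raw count, a CPM value (the count scaled to the library total) and an RPKM value (CPM divided by gene length). Recomputing both from the deposited counts gave the same values, and fits used the counts. Per the submitters' processing notes, the tools were Partek 6.6, HTSeq 0.8.0, featureCounts 1.4.5 with Subread, and STAR 2.0.4, on mm10, with no role given. Per the labels' protocols, libraries came from 3 to 5 ng of RNA with the SMARTer Ultra Low kit. Strand setting is not given in the sources used here.

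The 12 Mx1 libraries (6 groups of 2) were fitted together in edgeR 4.0.16 (R 4.3.3) with filterByExpr (minimum count 10, minimum total 15), TMM scaling and robust quasi-likelihood F tests on 6 residual degrees of freedom. P-values were adjusted by Benjamini-Hochberg at 0.05. The SE is the log2 fold change over the square root of F. DESeq2 1.42.0 and voom of limma 3.58.1 were alternatives. The fits were also run on simulated counts with 200 changed genes. The simulated spread was narrower than that of these libraries, and heart RNA was alike in every simulated library. The simulation therefore cannot show how the fits perform on these data. Vav libraries gave marker levels only. CPM printed for a library is not TMM scaled, and groups do not overlap where both Jak2V617F CPM values lie on 1 side of both controls; the same was counted on CPM divided by the TMM factor.

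The 24 gene lists and the comparison were chosen with earlier results of these data known, so no list's direction is independent of them. Genes named are the lead genes of each list, up to 4 further members whose groups do not overlap, and, since none passed, the 12 of smallest unadjusted p in each direction with average log2 CPM of at least 2, leaving out heart, predicted, small RNA and pseudogene entries. Other members were named to complete a pattern, after their values were seen. Gbp5 and Gbp6 had no row. The sample labels give an age of 10 weeks, used here, and the protocol text 8 weeks, the label age of the Vav libraries, with pools of 5 or of 3 mice of each sex. Alternatives were other scalings, filters, tools, libraries and terms for heart RNA and for the replicate number. Results that need some genes are not reported here.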

Additional observations from a re-analysis of the deposited data

How the results depend on the processing

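The count of 0 genes past the threshold held in 12 of 15 alternative fits. DESeq2's Wald test called 5 genes (3 higher, 2 lower), the fit of the 4 libraries alone 6 (5 higher, 1 lower) and the fit with no filter on low counts 11 (8 higher, 3 lower). For the difference between HSC and MPP, DESeq2 called 1 gene (0 higher, 1 lower), and no filter gave 6 (3 higher, 3 lower), with 0 in the other alternatives run. Leaving out each of the 4 libraries gave 0 to 0 calls in both comparisons. Deviations of same-numbered control and Jak2V617F HSC libraries correlated at 0.0722, and over all pairs of Mx1 groups the values ran from -0.543 to 0.523. Heart counts were unequal within several groups of 2, so these values can neither show nor exclude that replicate numbers pair the libraries. With the replicate number as a block, 0 genes passed. Of 24 list medians, the sign changed in 9 without Jak2V617F replicate 2, in 5 without Jak2V617F replicate 1, in 6 without control replicate 1 and in 4 without control replicate 2, and in 11 with a term for libraries above 4% heart counts; the cause was not tested. With that term Tfrc had a log2 fold change of 2.16 and heart genes a median of -0.74. Of the 172 genes that the naming rules gave, 36 changed sign with that term. The sign changed in 31 of them without Jak2V617F replicate 2 and in 17 without Jak2V617F replicate 1. It changed in 18 without control replicate 1 and in 9 without control replicate 2. The coefficient of variation of 0.786 is over the 12 Mx1 libraries, 2 a group. Differences of the size printed here could not be told from that spread, and genes below about 1 CPM rest on few counts.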

Other observations

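Plekhh2, a gene chosen after its values were seen, stood at 26.3 and 184 CPM in control and 49.0 and 7186 in Jak2V617F, so 1 library held nearly all of it. Its adjusted p by edgeR's quasi-likelihood test was 0.000179 without a filter on low counts, and 1 in the fit described above. Among the other Mx1 libraries it ran from 4.68 CPM in control MPP replicate 1 to 11621 in replicate 1 of the HSC libraries of Jak2V617F with Jarid2 deleted. Libraries with like heart counts differed in it. Jak2V617F MPP replicates 1 and 2, with 8.77% and 7.98% heart counts, had 830 and 218 CPM, and replicate 2 of the HSC libraries with Jarid2 deleted, with 0.578%, had 4764. Cd5l, a protein secreted by tissue macrophages, also chosen after its values were seen, was at 12.3 and 6.81 CPM in control and 0.186 and 0.0855 in Jak2V617F, and DESeq2's adjusted p was 0.0288.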
